A study of Mus musculus with 16 samples.

Results

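The small leucine-rich proteoglycans (SLRPs) are secreted matrix proteins that sit on collagen fibrils, and 9 of their genes were followed here through the pressure-overloaded mouse heart: Fmod, Lum, Dcn, Bgn, Ogn, Omd, Prelp, Aspn and Podn. They were taken by symbol from a table of 55487 gene rows, and all 9 were among the 18275 genes that had enough reads to be tested. They were chosen by name, with earlier results of these data known. After transverse aortic constriction (TAC), 5 of the 9 rose in Ctrl hearts and 7 rose in hearts labelled as knockouts (KO) of the lncRNA Cardinal, led in both by Fmod and Bgn. Ogn and Podn did not pass the test in any comparison.

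An SLRP is built of a short rod of leucine-rich repeats, to which most members add chains of chondroitin, dermatan or keratan sulphate. They bind fibrillar collagen, set the width and spacing of its fibrils, and hold growth factors such as TGF-β in the matrix. In the heart they are made mainly by fibroblasts and are known as a part of the scar and of the interstitial matrix that thickens under load. The members fall into classes by sequence: Dcn (decorin), Bgn (biglycan) and Aspn (asporin) are class I, Fmod (fibromodulin), Lum (lumican), Prelp (prolargin) and Omd (osteomodulin) are class II, Ogn (osteoglycin, or mimecan) is class III, and Podn (podocan) is class V.

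Poly(A) RNA of the heart apex of 16 mice was sequenced, with 4 mice in each of the groups Ctrl sham, Ctrl TAC, KO sham and KO TAC. Ctrl mice are labelled WT, and KO mice are labelled as carrying a deletion of Cardinal (Gm12295) made with CRISPR/Cas9. TAC ties off part of the aortic arch and loads the left ventricle, sham mice had the same operation without the tie, and hearts were collected 4 weeks later. The mice were males, per the study's methods, and the labels give no age. The samples are whole tissue, so fewer cells of a type and less RNA per cell cannot be told apart in any value below. Levels are in CPM, a gene's reads scaled by the TMM-adjusted library total. Group levels are means ± SD (n = 4). A gene was called when its Benjamini-Hochberg adjusted p from edgeR's quasi-likelihood test, adjusted over all 18275 genes, was under 0.05.

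The libraries held 53169437 to 79404714 counts, of which 21.9% to 28.8% came from genes encoded by the mitochondrial genome. Cardinal itself was at 3.24 to 3.86 CPM in the 4 Ctrl sham libraries and at 0.297 to 0.553 CPM in the 4 KO sham libraries (exact two-sided permutation p = 0.0286, the smallest that 4 against 4 can give). After TAC it was at 2.69 to 8.02 CPM in Ctrl hearts and at 0.276 to 0.371 CPM in 3 of the KO hearts, but at 4.55 CPM in the library labelled KO TAC 4, which goes against that label. Between the TAC groups the exact permutation p was 0.114. The animal numbers of Ctrl TAC 2, 3 and 4 and of the library labelled KO TAC 4 start with 25 and all others start with 3, and what this numbering stands for is not stated. Ctrl TAC 2 was the lowest library of its group for 8 of the 9 SLRP genes. The calls between the TAC groups are therefore also given without these libraries. Of the markers of the labelled tissue, the 8 ventricular cardiomyocyte markers summed to between 41311 and 61745 CPM while the 4 atrial markers summed to at most 3.35 CPM and the 4 skeletal muscle markers to at most 4.27 CPM.

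RefSeq promoter sequences (GRCm38.p6) were at hand for 7 of the 9 genes. The last 100 bases before the transcription start are printed for Fmod and Bgn, the 2 genes that rose most after TAC, and for Aspn and Ogn, near neighbours on chromosome 13 of which Aspn rose and Ogn did not. Capitals mark the letters of a searched motif.
Fmod, chr1:134037154-134037253 (+ strand): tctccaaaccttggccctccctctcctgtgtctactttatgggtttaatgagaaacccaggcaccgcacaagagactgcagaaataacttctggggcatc
Bgn, chrX:73483501-73483600 (+ strand): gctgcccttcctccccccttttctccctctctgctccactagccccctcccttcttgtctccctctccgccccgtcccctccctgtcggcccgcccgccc
Aspn, chr13:49544343-49544442 (+ strand): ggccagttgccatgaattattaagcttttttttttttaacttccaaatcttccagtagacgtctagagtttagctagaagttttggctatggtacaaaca
Ogn, chr13:49607915-49608014 (+ strand): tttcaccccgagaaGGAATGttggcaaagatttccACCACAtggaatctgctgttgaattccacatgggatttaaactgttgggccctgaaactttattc

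The start region of Bgn was 71.0% G and C and rich in runs of pyrimidine, that of Fmod was 50.0%, that of Ogn 43.0% and that of Aspn 35.0%. Motifs of 5 kinds were searched on both strands in the 250 bases before the start, namely the TATA box (TATAAA), TEAD (GGAATG), AP-1 (TGANTCA), SMAD (CAGAC) and RUNX (TGTGGT). The TEAD and RUNX letters in the Ogn sequence, the latter on the opposite strand, were the only matches inside the printed stretches. Of the 7 genes, Fmod and Prelp held CAGAC (42.2% of all 32851 promoter windows do), Ogn held GGAATG (12.6% of all) and TGTGGT (14.0% of all), Aspn and Ogn held TATAAA (12.4% of all), and no window held TGANTCA (6.75% of all). The TATAAA matches lay between 207 and 173 bases before the start in Aspn and between 229 and 222 bases before it in Ogn. Those of Ogn, on its 2 strands, overlap each other. These are matches of letters, and binding was not measured.

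The first question was which SLRP genes respond to pressure overload in a heart with Cardinal. In Ctrl hearts TAC raised 5 of the 9, Fmod, Lum, Bgn, Prelp and Aspn, and lowered none. Over all genes tested, 20.0% were called and 10.4% were called higher. The median log2 fold change was 0.65 over the 9 SLRP genes and 0.0043 over all genes. The 5 called genes were also the members whose 4 Ctrl TAC libraries all lay above all 4 Ctrl sham libraries, which held for 10.5% of all genes. In KO hearts the same comparison raised 7 of the 9, those 5 with Dcn and Omd, against 34.3% of all genes called and 17.8% called higher, and the same 7 had no overlap between the groups (18.0% of all genes). These 7 were also the calls without the library labelled KO TAC 4. The median of the 9 was 1.17 on the log2 scale and that of all genes was -0.0039. Summed over the 9 genes, the level went from 636 ± 23.1 to 952 ± 168 CPM in Ctrl hearts and from 633 ± 17.6 to 1312 ± 89.4 CPM in KO hearts.

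**Figure D1:**
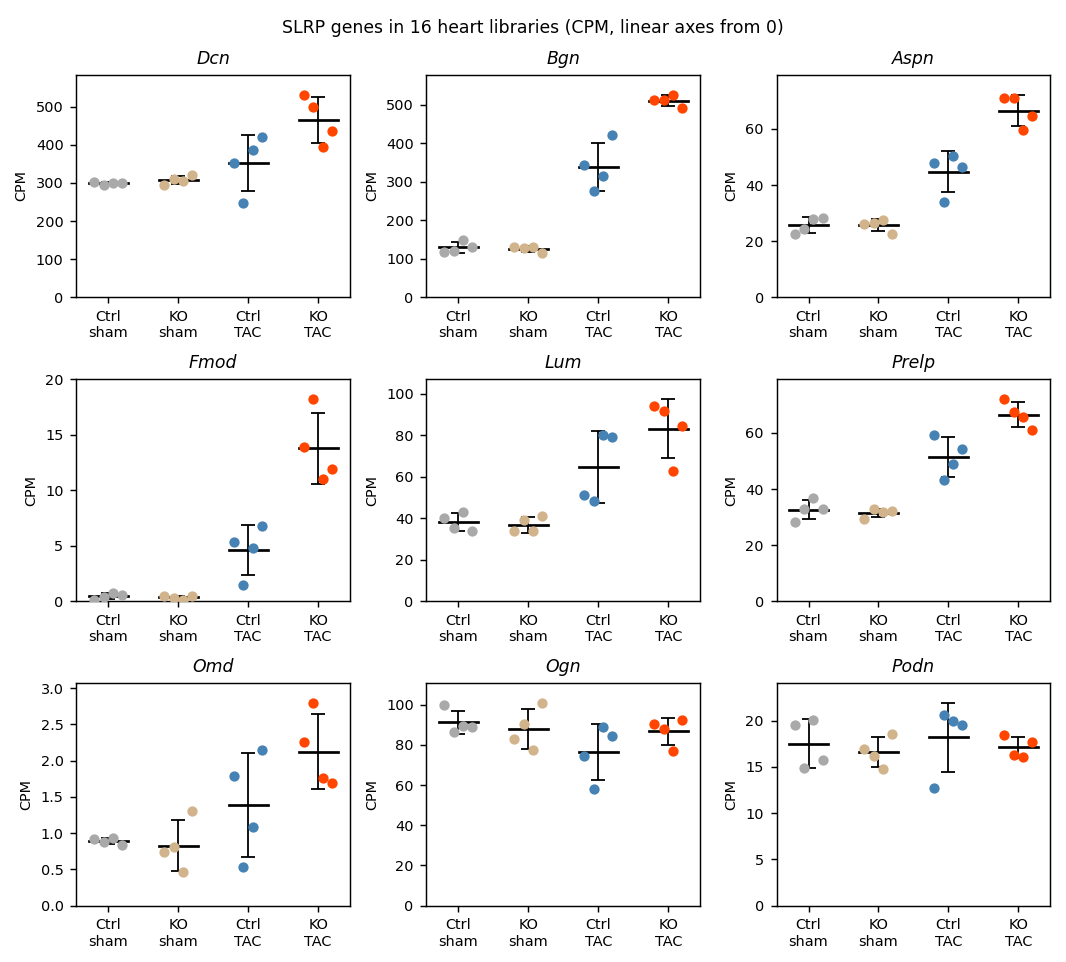
Level of each SLRP gene (y axis, CPM on linear axes from 0) in the 4 groups (x axis). Points are libraries in replicate order, lines are means and bars are 1 SD (n = 4). Bgn, Aspn, Fmod and Prelp step up from sham to Ctrl TAC and again to KO TAC without overlap, while the 4 groups of Ogn, and those of Podn, overlap.

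Bgn (ENSMUSG00000031375, chromosome X, 73483602 to 73495933, GRCm38) encodes biglycan, which can also act as a ligand of Toll-like receptors when released from the matrix. In sham hearts its libraries read 119, 121, 149 and 129 CPM (Ctrl) and 131, 128, 130 and 115 CPM (KO). After TAC they read 344, 276, 315 and 421 CPM in Ctrl hearts and 513, 512, 526 and 492 CPM in KO hearts. No TAC library overlapped a sham library, and the KO TAC libraries lay close together, with an SD of 13.7 CPM against 61.8 CPM in Ctrl TAC. The log2 fold change with TAC was 1.39 ± 0.10 (SE; edgeR adjusted p = 1.34e-07) in Ctrl and 2.02 ± 0.10 (edgeR adjusted p = 1.13e-09) in KO, which is 2.61 and 4.06 times the sham mean.

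Aspn (ENSMUSG00000021388, chromosome 13, 49544443 to 49567565) encodes asporin, a class I member with a stretch of aspartates in place of a sugar chain. It read 22.4, 24.2, 27.8 and 28.2 CPM (Ctrl) and 26.2, 26.6, 27.6 and 22.7 CPM (KO) in sham hearts. In TAC hearts it read 48.0, 34.1, 50.5 and 46.5 CPM (Ctrl) and 71.0, 71.2, 59.5 and 64.4 CPM (KO). The groups did not overlap after TAC, and the lowest Ctrl TAC library was replicate 2. Aspn rose by 0.80 ± 0.11 on the log2 scale in Ctrl (edgeR adjusted p = 6.58e-05) and by 1.37 ± 0.11 in KO (edgeR adjusted p = 9.94e-08).

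Dcn (ENSMUSG00000019929, chromosome 10, 97479609 to 97518143) encodes decorin, the member with the highest level per kb in the sham heart and a binder of TGF-β. It was steady in sham hearts, at 304, 296, 299 and 299 CPM in Ctrl and 295, 310, 305 and 320 CPM in KO. Ctrl TAC hearts spread widely around that level, at 353, 248, 386 and 420 CPM, and KO TAC hearts stood above it at 531, 499, 395 and 435 CPM. The only TAC library under the sham range was Ctrl TAC 2. Dcn was called in KO (log2 fold change 0.60 ± 0.12, edgeR adjusted p = 0.00113) and not in Ctrl (0.23 ± 0.12, edgeR adjusted p = 0.201). Without Ctrl TAC 2 the Ctrl comparison called it too, with a log2 fold change of 0.37 (edgeR adjusted p = 0.00335), and without Ctrl TAC 4 the value was 0.14 (edgeR adjusted p = 0.499).

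Fmod (ENSMUSG00000041559, chromosome 1, 134037254 to 134048277) encodes fibromodulin, a keratan sulphate member that binds collagen and guides its cross-linking. It was barely present without load, at 0.139, 0.437, 0.727 and 0.606 CPM in Ctrl and 0.490, 0.315, 0.172 and 0.457 CPM in KO hearts, which rests on 10 to 43 reads a library. After TAC it read 5.35, 1.46, 4.77 and 6.77 CPM in Ctrl and 13.9, 18.2, 11.0 and 11.9 CPM in KO. Every TAC library was above every sham library and every KO TAC library above every Ctrl TAC library. The TAC mean was 9.61 times the sham mean in Ctrl (log2 fold change 3.30 ± 0.48, edgeR adjusted p = 0.000255) and 38.4 times in KO (5.25 ± 0.50, edgeR adjusted p = 2.28e-06), the widest changes among the 9.

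Lum (ENSMUSG00000036446, chromosome 10, 97565128 to 97572703) encodes lumican, which like fibromodulin regulates the growth of collagen fibrils. In Ctrl hearts it read 40.4, 35.5, 43.0 and 33.7 CPM after sham and 51.1, 48.3, 80.4 and 79.1 CPM after TAC. In KO hearts it read 33.7, 39.3, 33.8 and 41.0 CPM after sham and 94.3, 91.6, 62.8 and 84.3 CPM after TAC. The Ctrl TAC libraries fell into a lower and an upper pair, and the TAC groups overlapped. Lum rose by 0.76 ± 0.17 on the log2 scale in Ctrl (edgeR adjusted p = 0.00612) and by 1.17 ± 0.17 in KO (edgeR adjusted p = 0.000118). With a model term for the numbers starting with 25 the Ctrl call was lost (edgeR adjusted p = 0.121).

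Prelp (ENSMUSG00000041577, chromosome 1, 133910304 to 133921414, minus strand) encodes prolargin, a heparin-binding member that anchors basement membranes to collagen. Its sham libraries lay between 28.4 and 36.8 CPM in Ctrl and between 29.3 and 32.9 CPM in KO. The TAC libraries read 59.4, 43.1, 48.9 and 54.4 CPM in Ctrl and 72.1, 67.3, 65.5 and 61.1 CPM in KO. The 3 levels, sham, Ctrl TAC and KO TAC, did not overlap. The log2 fold change with TAC was 0.65 ± 0.09 in Ctrl (edgeR adjusted p = 5.00e-05) and 1.08 ± 0.09 in KO (edgeR adjusted p = 7.79e-08). Of the exon bases of Prelp, 350 (9.68%) lie on top of the opposite-strand gene Gm15851, and whether counting used the strand is not given in the sources used here.

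Omd (ENSMUSG00000048368, chromosome 13, 49582462 to 49592822) encodes osteomodulin, best known from bone. It was faint, at 0.841 to 0.930 CPM (Ctrl) and 0.465 to 1.30 CPM (KO) after sham, and read 1.80, 0.538, 1.08 and 2.14 CPM in Ctrl TAC and 2.26, 2.79, 1.76 and 1.69 CPM in KO TAC. It was called in KO (log2 fold change 1.36 ± 0.34, edgeR adjusted p = 0.00506) and not in Ctrl (0.64 ± 0.34, edgeR adjusted p = 0.217). The Ctrl value passed without Ctrl TAC 2 (edgeR adjusted p = 0.0309), and the KO call was lost with a term for animal numbers starting with 33 (edgeR adjusted p = 0.105).

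Ogn (ENSMUSG00000021390, chromosome 13, 49608046 to 49624501) encodes osteoglycin, a class III member that is abundant in the heart at rest. Its 4 groups read 91.2 ± 5.90, 87.9 ± 10.1, 76.6 ± 13.8 and 86.9 ± 6.73 CPM, sham before TAC and Ctrl before KO within each. The single Ctrl TAC libraries were 74.7, 58.0, 89.1 and 84.5 CPM, and those of KO TAC 90.4, 87.8, 77.2 and 92.2 CPM, against 77.3 to 101 CPM over the 8 sham libraries. Its log2 fold change with TAC was -0.25 ± 0.11 in Ctrl (edgeR adjusted p = 0.124) and -0.02 ± 0.11 in KO (edgeR adjusted p = 0.931). Without Ctrl TAC 3 the Ctrl value fell just under the threshold (edgeR adjusted p = 0.0477), with a lower level after TAC.

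Podn (ENSMUSG00000028600, chromosome 4, 108014791 to 108096445, minus strand) encodes podocan, described as a brake on smooth muscle growth. It stayed between 12.7 and 20.6 CPM in all 16 libraries, with group means of 17.5 ± 2.63, 16.6 ± 1.59, 18.2 ± 3.70 and 17.1 ± 1.12 CPM in the same order. The log2 fold changes with TAC were 0.05 ± 0.13 (edgeR adjusted p = 0.827) in Ctrl and 0.04 ± 0.13 (edgeR adjusted p = 0.834) in KO.

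**Figure D2:**
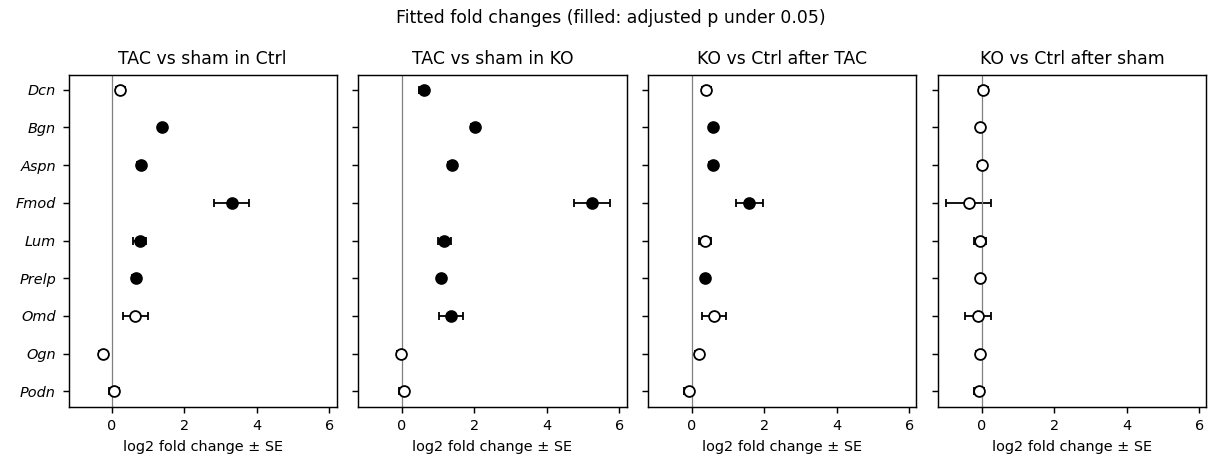
Fitted log2 fold change (x axis, bars ± 1 SE) of each SLRP gene (y axis, ordered by class) in 4 comparisons. Filled points have an edgeR adjusted p under 0.05, which is 5 genes for TAC in Ctrl, 7 for TAC in KO, 4 for KO against Ctrl after TAC and 0 after sham.

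The second question was whether loss of Cardinal alters these genes in the loaded heart. In KO TAC against Ctrl TAC, 4 of the 9 were higher, Fmod, Bgn, Aspn and Prelp, and none was lower, where 2.68% of all genes were called and 1.36% were called higher. Those 4 also had every KO TAC library above every Ctrl TAC library, as 5.55% of all genes did. Bgn was 0.59 ± 0.10 higher on the log2 scale (edgeR adjusted p = 0.0104), Aspn 0.57 ± 0.11 (edgeR adjusted p = 0.0145), Prelp 0.37 ± 0.09 (edgeR adjusted p = 0.0338) and Fmod 1.58 ± 0.38 (edgeR adjusted p = 0.0422). In terms of means these were ratios of 1.51, 1.49, 1.29 and 3.00. Dcn (0.40 ± 0.12, edgeR adjusted p = 0.0828), Lum (0.36 ± 0.17, adjusted p = 0.274), Omd (0.61 ± 0.33, adjusted p = 0.335), Ogn (0.18 ± 0.11, adjusted p = 0.403) and Podn (-0.09 ± 0.13, adjusted p = 0.774) did not pass. The Ctrl TAC and KO TAC libraries used here are the same as in the comparisons with sham.

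These 4 calls changed with the libraries and model terms used, and the cause was not tested. With a model term for the numbers starting with 25 none of the 9 was called (edgeR adjusted p of 0.0862 for Bgn, 0.104 for Aspn, 0.190 for Fmod and 0.204 for Prelp), with log2 differences of 0.57, 0.52, 1.44 and 0.26, where 0.0657% of all genes were called. The only library of the 25 series labelled KO is KO TAC 4, whose Cardinal level of 4.55 CPM lies within the Ctrl TAC range, and the other series holds 1 Ctrl TAC library. Within the series starting with 25, the library labelled KO TAC 4 read 492 CPM for Bgn against 276 to 421 CPM in the 3 Ctrl libraries, 64.4 against 34.1 to 50.5 CPM for Aspn, 61.1 against 43.1 to 54.4 CPM for Prelp and 11.9 against 1.46 to 6.77 CPM for Fmod. Within the other series, the 3 KO TAC libraries read 512 to 526 CPM for Bgn against 344 CPM in Ctrl TAC 1, 59.5 to 71.2 against 48.0 CPM for Aspn, 65.5 to 72.1 against 59.4 CPM for Prelp and 11.0 to 18.2 against 5.35 CPM for Fmod. In both series every library labelled KO was above every library labelled Ctrl for 7 of the 9 genes, all but Omd and Podn, which in the 25 series rests on KO TAC 4 alone. The 7 include Lum, Dcn and Ogn, whose full TAC groups overlapped and which did not pass in the main fit. The share of all genes with this pattern was not counted, so the 7 cannot be set against it. Without the library labelled KO TAC 4, whose Cardinal level goes against its label, 3 of the 4 were called, Bgn (edgeR adjusted p = 0.0132), Aspn (adjusted p = 0.0225) and Prelp (adjusted p = 0.0324), and Fmod was not (adjusted p = 0.0581), with 2.37% of all genes called. Without that library and Ctrl TAC 2 together, 2 were called, Bgn (edgeR adjusted p = 0.0307) and Aspn (adjusted p = 0.0326), against 0.594% of all genes. A fit to the 8 TAC libraries alone called 1, Bgn (edgeR adjusted p = 0.0408), against 0.877% of all genes. With 1 library left out at a time, Bgn and Aspn were called in 16 of 16 fits, Prelp in 11 and Fmod in 3. DESeq2 called those 4 and Dcn (adjusted p = 0.0175), against 6.47% of all genes.

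**Figure D3:**
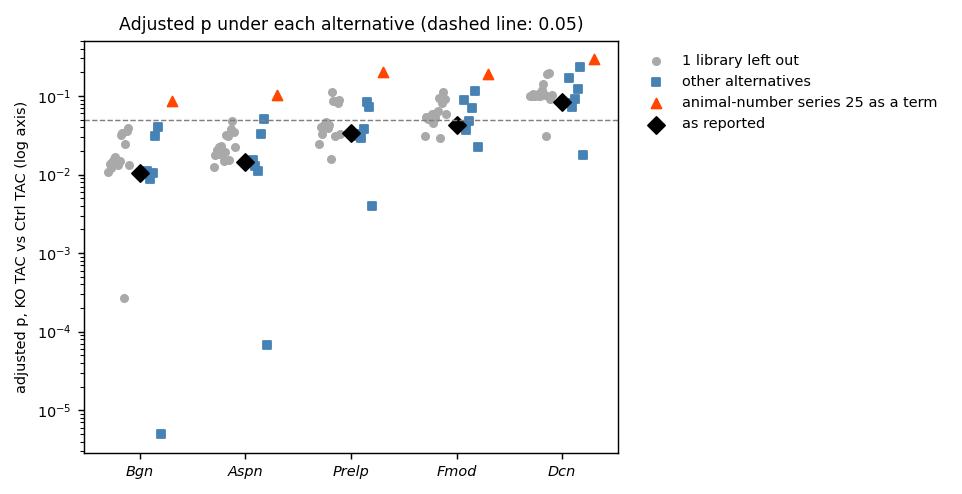
Adjusted p of KO TAC against Ctrl TAC (y axis, log axis) for 5 SLRP genes (x axis). Black diamonds are the values reported, grey points leave out 1 library each (16 fits), blue squares are other alternatives and red triangles add the animal-number series as a term. The grey points of Bgn and Aspn are all under the dashed line at 0.05, 11 of 16 are for Prelp and 3 of 16 for Fmod, and the red triangles of all 5 are above it.

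The third question was whether the deletion matters without load. In KO sham against Ctrl sham edgeR called none of the 9 and 0.0% of all genes tested (0.0% higher). None of the 9 had an unadjusted p under 0.05, which 2.62% of all genes had. Cardinal itself was not called in this comparison, at an edgeR log2 difference of -2.92 and with no overlap between the groups. The spread of each gene was fitted over all 16 libraries, which for Cardinal include the library labelled KO TAC 4 at 4.55 CPM. Whether that library kept Cardinal from being called was not tested, so its miss cannot be carried over to the 9 genes. A lack of calls without load does not by itself show a lack of change. DESeq2 also called none of the 9. The log2 differences ran from -0.36 ± 0.62 for Fmod, the faintest member, to 0.04 ± 0.12 for Dcn, each with an edgeR adjusted p of 1.00. Bgn differed by -0.04 ± 0.10 and Aspn by 0.0063 ± 0.11 on the log2 scale, so that for these the SE is small beside the differences after TAC.

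The genotype by surgery interaction tests directly whether the TAC response differed between genotypes. None of the 9 passed (0.0109% of all genes did), while 5 of the 9 had an unadjusted p under 0.05, as had 11.1% of all genes. These were Bgn (interaction 0.63 ± 0.14 on the log2 scale, edgeR adjusted p = 0.142), Aspn (0.56 ± 0.15, adjusted p = 0.227), Prelp (0.42 ± 0.12, adjusted p = 0.241), Fmod (1.95 ± 0.73, adjusted p = 0.341) and Dcn (0.36 ± 0.17, adjusted p = 0.449). Without Ctrl TAC 4 Bgn passed (edgeR adjusted p = 0.00615, 0.0973% of all genes called), and DESeq2 called 2, Bgn (adjusted p = 0.00743) and Aspn (adjusted p = 0.0451), against 0.724% of all genes. That 7 genes were called for TAC in KO and 5 in Ctrl therefore does not show a different response for Dcn or Omd.

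Levels of different genes were compared per kb of annotated exon. In Ctrl sham hearts Dcn came first at 51.3 ± 0.561 CPM per kb, then Ogn at 35.5 ± 2.3, Bgn at 21.2 ± 2.25, Lum at 15.6 ± 1.76, Aspn at 10.9 ± 1.2, Prelp at 9.05 ± 0.946, Podn at 4.10 ± 0.615, Omd at 0.396 ± 0.0182 and Fmod at 0.144 ± 0.0771. Only Aspn and Prelp overlapped as neighbours in this order, and KO sham had the same order. In Ctrl TAC, Dcn (60.2 ± 12.7) and Bgn (55.6 ± 10.1) overlapped at the top, followed by Ogn, Lum, Aspn and Prelp, each overlapping the next. In KO TAC, Bgn (83.7 ± 2.25) and Dcn (79.6 ± 10.5) overlapped at the top, Lum (34.0 ± 5.82), Ogn (33.9 ± 2.62) and Aspn (28.3 ± 2.40) formed the middle, and Fmod (4.17 ± 0.966) had moved from the ninth place to overlap Podn (4.01 ± 0.262). The place of Bgn depends on its length, since its exons cover 6099 bases together and 2666 in the longest transcript. By the latter Bgn stood at 48.6 CPM per kb in Ctrl sham, second to Dcn at 63.8, and at 127 in Ctrl TAC, ahead of Dcn at 75.0.

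**Figure D4:**
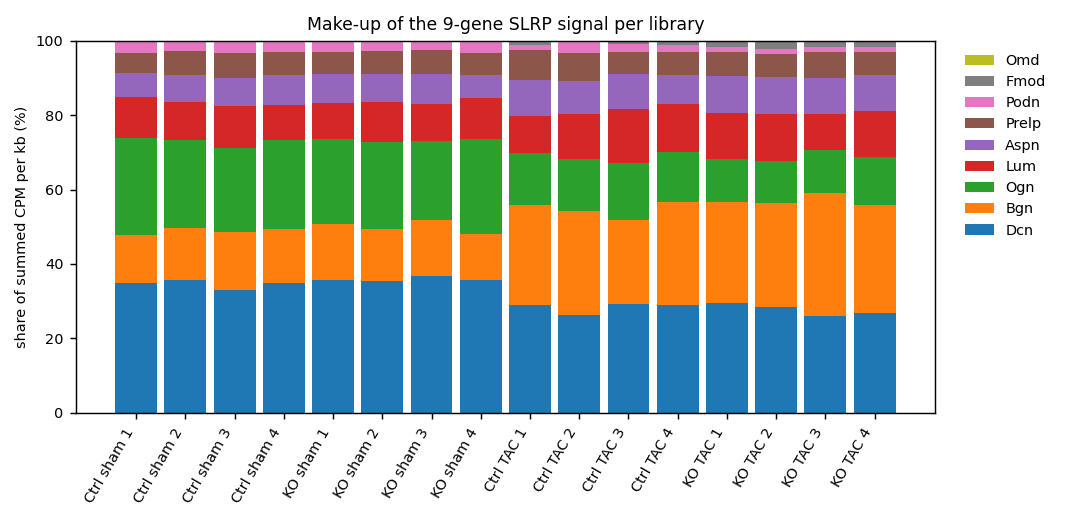
Share of each gene in the summed CPM per kb of the 9 SLRP genes (y axis, percent) in each of the 16 libraries (x axis). Lengths are all annotated exon bases of a gene together, and the shares depend on this choice. In the 8 TAC libraries the Bgn band is wider and the Ogn and Dcn bands narrower than in the 8 sham libraries, and Fmod appears as a thin band at the top.

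The make-up of the SLRP signal shifted with TAC in both genotypes. As a share of the summed CPM per kb, Bgn made up 14.3% (Ctrl) and 14.1% (KO) after sham and 26.4% and 29.3% after TAC. Dcn went from 34.6% and 35.9% to 28.3% and 27.7%, and Ogn from 24.0% and 23.3% to 14.1% and 11.8%. Lum held 10.5% and 10.3% after sham and 12.4% and 11.8% after TAC, and Fmod went from 0.0971% and 0.0737% to 0.627% and 1.44%. All shares depend on the lengths used, here all annotated exon bases together, which for Bgn are 6099. With the 2666 bases of its longest transcript the shares of Bgn would be larger, and shares by that length were not computed. Within a library, the log2 ratio of Bgn to Dcn, in CPM, was -1.35 to -1.01 (Ctrl) and -1.48 to -1.18 (KO) after sham, and -0.30 to 0.15 in Ctrl TAC and -0.05 to 0.41 in KO TAC. These class I relatives thus went from a clear excess of decorin reads to about equal reads, without overlap between sham and TAC libraries. The pair was chosen after its values were seen and is given without a test.

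**Figure D5:**
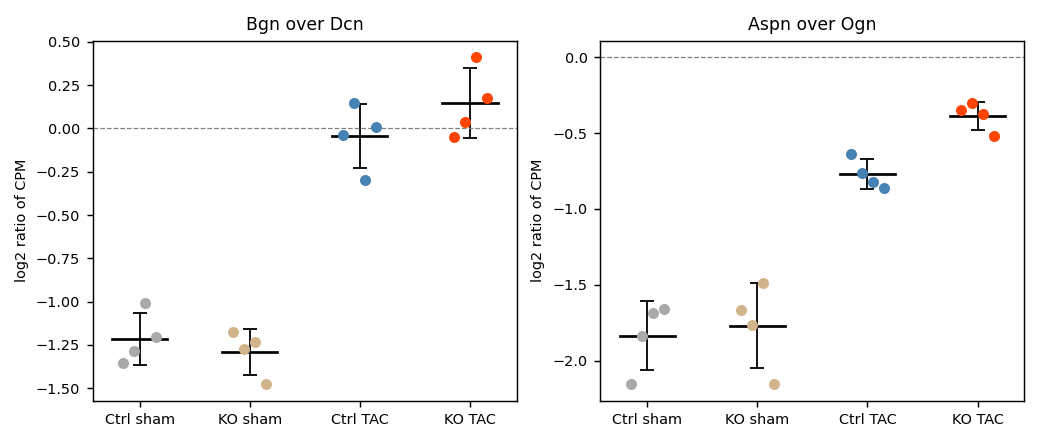
Log2 ratio of CPM within each library (y axis) for Bgn over Dcn (left) and Aspn over Ogn (right) in the 4 groups (x axis). Points are libraries, lines means and bars 1 SD (n = 4). Both ratios are higher in all 8 TAC libraries than in all 8 sham libraries.

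Most of the 9 genes lie beside another family gene in the genome. Aspn, Omd and Ogn stand in a row on the plus strand of chromosome 13 with 14897 and 15224 bases between them, behind Ecm2 (49504810 to 49532789), all within the span of the opposite-strand gene Cenpp. Aspn and Ogn, at the ends of that row, differed in response. Aspn was called in both TAC comparisons and between the TAC groups, and Ogn in none. The log2 ratio of Aspn to Ogn in CPM went from a range of -2.16 to -1.66 to one of -0.86 to -0.64 in Ctrl, and from -2.15 to -1.49 to -0.52 to -0.30 in KO, again a pair chosen after its values were seen. On chromosome 10, Dcn and Lum are 46985 bases apart, followed by Kera, with 0 reads in every library, and Epyc, with at most 6. On chromosome 1, Prelp and Fmod face away from each other across 115840 bases without a protein-coding gene between them, and both were called in both TAC comparisons and between the TAC groups.

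Other genes of the family gave a mixed picture. Of 9 listed, Kera, Epyc, Optc, Nyx, Chad, Chadl, Tsku, Podnl1 and Ecm2, 6 had enough reads to be tested. Tsku (tsukushi, a secreted inhibitor of growth factor signalling) rose with TAC in both genotypes, by 0.51 ± 0.16 on the log2 scale in Ctrl (edgeR adjusted p = 0.0298) and 1.01 ± 0.16 in KO (edgeR adjusted p = 7.50e-05). Ecm2 rose in KO (0.56 ± 0.11, edgeR adjusted p = 0.000471), and Chadl fell in Ctrl (-0.83 ± 0.21, edgeR adjusted p = 0.0088). None of the 6 was called between the TAC groups, where 2.68% of all genes were called. With TAC, 10.4% of all genes were called higher and 9.6% lower in Ctrl, and 17.8% were called higher in KO. The 6 genes are too few to set their counts apart from these shares.

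All 10 listed collagen genes rose with TAC in Ctrl (median log2 fold change 1.27) and in KO (median 1.88), led by Col12a1, which forms bridges on fibril surfaces (1.97 ± 0.19 and 3.36 ± 0.19), and Col3a1 (1.68 ± 0.13 and 2.23 ± 0.14) among the fibrillar chains. The shares of all genes called higher with TAC were 10.4% in Ctrl and 17.8% in KO. Between the TAC groups 4 of the 10 were called higher in KO, with Col12a1 at 1.30 ± 0.17 (edgeR adjusted p = 0.00563), Col14a1 at 0.63 ± 0.10 (edgeR adjusted p = 0.00753) and Col5a2 at 0.51 ± 0.09 (edgeR adjusted p = 0.0104), where 1.36% of all genes were called higher. These 3 were also called without KO TAC 4, without Ctrl TAC 2 and without both, and Col1a2 in none of the 3 fits. With the term for numbers starting with 25 only Col12a1 was called (edgeR adjusted p = 0.0446). The 10 genes summed to 349 to 504 CPM over the Ctrl sham libraries and 1050 to 1298 CPM after TAC, and to 396 to 448 CPM and 1405 to 1482 CPM in KO.

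Of the 14 enzymes of chondroitin and dermatan sulphate, the chains of decorin and biglycan, 6 rose with TAC in Ctrl and 11 in KO and none fell, with a median log2 fold change of 0.30 and 0.44, where 10.4% and 17.8% of all genes were called higher. The largest were Ust (0.57 ± 0.14), Chpf (0.48 ± 0.07) and Chst12 (0.45 ± 0.10) in Ctrl, and Chsy3 (1.04 ± 0.35), Chpf2 (0.73 ± 0.06) and Dse, an epimerase that turns chondroitin into dermatan sulphate (0.73 ± 0.12), in KO. Of the 7 keratan sulphate enzymes, 5 were tested, and B3gnt2 in KO was the only call (0.42 ± 0.09, edgeR adjusted p = 0.00205). Of the 6 enzymes of the linker to the protein core, Xylt1, which starts the chain, was the only call in either genotype (0.51 ± 0.11 in Ctrl and 0.49 ± 0.11 in KO). Of the 5 genes of sulphate supply and tyrosine sulphation only Papss1 was called (0.23 ± 0.07 and 0.29 ± 0.07). None of these enzymes was called between the TAC groups, where only 2.68% of all genes were called.

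Of 15 growth factors and receptors that members of the family bind, 10 rose in Ctrl and 11 in KO and none fell, where 10.4% and 17.8% of all genes were called higher. They were led by Tgfb2 (log2 fold change 0.99 ± 0.15 in Ctrl and 1.63 ± 0.16 in KO) and the receptor Met (1.22 ± 0.24 and 1.48 ± 0.23), with Tlr4, a receptor of soluble biglycan, at 0.84 ± 0.13 in Ctrl. Of those that did not pass in either genotype, Igf1r was at -0.02 ± 0.10 and -0.01 ± 0.10 and Kdr at 0.0010 ± 0.17 and -0.28 ± 0.17. Tgfb3 alone was called higher in KO TAC than in Ctrl TAC (0.39 ± 0.10, edgeR adjusted p = 0.0421), a call that was lost without KO TAC 4 (adjusted p = 0.0699), without Ctrl TAC 2 (adjusted p = 0.123), without both (adjusted p = 0.165) and with the term for numbers starting with 25 (adjusted p = 0.112). Of 14 proteases and helpers that process SLRPs or their collagens, 8 rose and 1 fell in Ctrl and 10 rose and 1 fell in KO. Of all genes, 10.4% were called higher and 9.6% lower in Ctrl, and 17.8% higher and 16.5% lower in KO. The collagenolytic protease Ctsk rose by 0.93 ± 0.13 and 1.54 ± 0.13, and Htra1, a protease that cleaves several members of the family, fell by 0.60 ± 0.06 in Ctrl on the log2 scale. Ctsk (0.60 ± 0.12, edgeR adjusted p = 0.0184), Mmp2 (0.56 ± 0.11, adjusted p = 0.0194) and Mmp14 (0.51 ± 0.13, adjusted p = 0.0446) were called higher in KO TAC than in Ctrl TAC, as were 1.36% of all genes. All 3 were called without KO TAC 4, Ctsk and Mmp2 without both libraries, and none without Ctrl TAC 2 (edgeR adjusted p of 0.0726, 0.0711 and 0.154) or with the term for 25 (0.134, 0.131 and 0.251).

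Markers of several other cell states moved beside the SLRP genes. The shares of all genes called higher were 10.4% with TAC in Ctrl, 17.8% with TAC in KO and 1.36% in KO TAC against Ctrl TAC. The 6 activated fibroblast markers summed to 35.9 to 56.8 CPM (Ctrl) and 40.8 to 44.7 CPM (KO) after sham, and to 170 to 330 CPM (Ctrl) and 490 to 627 CPM (KO) after TAC. Of these, 5 rose with TAC in Ctrl and 6 in KO, and 4 were higher in KO TAC than in Ctrl TAC. Among the 4 were Cthrc1 (1.80 ± 0.40, edgeR adjusted p = 0.0259), Ltbp2 (1.27, edgeR adjusted p = 0.0329) and Postn (1.21 ± 0.18, edgeR adjusted p = 0.0102). Without KO TAC 4 the same 4 were called, without Ctrl TAC 2 and without both libraries 2 of them, Postn and Lox, and with the term for 25 none (edgeR adjusted p of 0.0848 for Postn and 0.123 for Cthrc1). The 6 resident fibroblast markers went both ways, with Pi16 up (1.42 ± 0.13 in Ctrl) and Scara5 down (-0.94 ± 0.18), and none was called between the TAC groups. The 8 tendon and cartilage markers, tissues in which Fmod is typical, summed to 5.54 to 8.36 CPM in sham hearts of both genotypes, 12.9 to 26.9 CPM in Ctrl TAC and 41.3 to 55.3 CPM in KO TAC, and Comp alone made up 10.3 ± 5.12 CPM of this in Ctrl TAC and 31.8 ± 5.06 CPM in KO TAC. Of the 7 tested, 6 rose with TAC in each genotype and 1, Comp, was called between the TAC groups, while the tendon factor Mkx did not pass with TAC (log2 fold change -1.04 ± 0.56 in Ctrl and -0.98 ± 0.53 in KO). The Comp call held without KO TAC 4, without Ctrl TAC 2 and without both (edgeR adjusted p of 0.0256, 0.0376 and 0.0329). With the term for 25 the Comp call was lost (edgeR adjusted p = 0.102). The 8 ventricular cardiomyocyte markers summed to 53804 to 61745 CPM in sham hearts, 46962 to 51127 CPM in Ctrl TAC and 41311 to 42669 CPM in KO TAC. Of the 8, 5 were called lower with TAC in Ctrl, 7 in KO and 2 between the TAC groups, against 9.6%, 16.5% and 1.32% of all genes. Those 2, Myh6 and Ryr2, were also called without KO TAC 4 (edgeR adjusted p of 0.0310 and 0.0439). Both were lost without Ctrl TAC 2 (edgeR adjusted p of 0.0719 and 0.127), without both libraries (0.0913 and 0.125) and with the term for 25 (0.102 and 0.113). Of the 5 macrophage markers, which summed to 84.4 to 112 CPM in sham and 110 to 152 CPM in TAC hearts, 2 rose in Ctrl and 4 in KO, and Cd163 was lower in KO TAC than in Ctrl TAC (-0.61 ± 0.14, edgeR adjusted p = 0.0347). That Cd163 call held without KO TAC 4 (edgeR adjusted p = 0.0296). It was lost without Ctrl TAC 2 (adjusted p = 0.121), without both libraries (adjusted p = 0.0876) and with the term for 25 (adjusted p = 0.142). Of the 3 Schwann markers, 2 were called lower with TAC in KO and none in Ctrl. None of the 5 endothelial markers was called in any comparison. The part of these shifts in the SLRP values was not tested.

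The genes whose log2 CPM ran closest to each SLRP gene over the 16 libraries were ranked by Pearson correlation among 10210 genes, as a description, since all points share the same 4 groups. Bgn was followed by Postn (periostin, r = 0.998), Serpinf1 (0.997) and Thbs4 (0.996), and Fmod by Itgbl1 (0.982), Pamr1 (0.981) and Arpc4 (0.981). For Prelp the closest were Mxra8, Loxl3 and Ssc5d (0.985, 0.985 and 0.984), for Aspn Dap, Myl6 and Fcrls (0.990, 0.983 and 0.982), for Lum Acot9 (0.958) and for Dcn Vps29 (0.944). Ogn and Podn had no closer companion than Sypl (0.878) and Midn (0.883). After the group means were taken out, Serpinf1 (0.898) and Postn (0.897) were still the closest to Bgn, while Fmod was then followed by Timp2 (0.857).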

How the data were processed

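Total RNA of the heart apex was isolated with TRIzol, poly(A)-selected with the TruSeq kit and sequenced in pairs, per the labels. The submitters' processing notes name cutadapt 2.3, FastQC, HISAT2 2.1.0, edgeR 3.26.1 and GRCm38, and the counting program, its annotation and its strand setting are not given in the sources used here. The deposited file is a single matrix of whole-number counts, unnormalized, in which rows are Ensembl genes and 16 columns are mice. Symbols, positions and exon lengths came from GENCODE M21 (GRCm38), which held 55227 (99.5%) of 55487 identifiers. Replicates were numbered in accession order, and nothing states separate litters or batches.

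Counts were filtered with filterByExpr, scaled by TMM and fitted in edgeR 4.0.16 (R 4.3.3) with 1 mean per group over all 16 libraries (glmQLFit, robust), and 5 contrasts were tested with glmQLFTest, with Benjamini-Hochberg adjustment over 18275 genes. The SE of a log2 fold change was its size divided by the square root of F. Log2 CPM for correlations had a prior count of 2 and needed an average of at least 2. Cardinal was compared with an exact permutation test (70 relabellings). Alternatives were RLE size factors, DESeq2 1.42.0, other count filters, an adjusted p under 0.01, terms for animal-number series, a fit to 8 libraries, left-out libraries, and, for levels, a total without mitochondrial genes and the longest transcript. The alternatives for the other gene lists were chosen after seeing the data.

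The 9 genes, the lists and the tests were chosen with earlier results of these data known. All 9 members are named. The genes named from each other list are mostly called genes with the largest log2 fold changes per comparison. Some genes without a call, Igf1r, Kdr and Mkx among them, are named too. Tnmd was left out for its 0 counts in Ctrl sham, and Comp was given in its place.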

Additional observations from a re-analysis of the deposited data

Results flagged for a closer look

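In each of 36 sets of 4 libraries (9 genes in 4 groups), the gap between an end library and its nearest neighbour was set against the range by Dixon's test at the 95% level. The limit was passed in 2 sets, where chance gives about 1 in 20. Bgn in KO sham 4 was at 114.9 CPM and the other KO sham libraries at 128 to 131 CPM, a gap of 0.844 of the range. Podn in Ctrl TAC 1 was at 12.7 CPM and the other Ctrl TAC libraries at 19.5 to 20.6 CPM, a gap of 0.853 of the range. Podn was called in no comparison. Bgn was called for TAC against sham in both genotypes in all 16 fits that left out 1 library.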

How the results depend on the processing

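No paired analysis was possible because the replicate numbers follow accession order and the labels pair no animals. The counts for TAC against sham were 5 (4 to 7) in Ctrl and 7 (6 to 7) in KO over the alternatives run, the 7 in Ctrl without Ctrl TAC 2. For KO TAC against Ctrl TAC the count of 4 went to 0 with the series term and at an adjusted p under 0.01, to 2 without Ctrl TAC 2 and the library labelled KO TAC 4 together to 1 in the fit to 8 libraries, to 3 without a filter (Fmod lost, adjusted p = 0.0892) and to 5 with DESeq2 (Dcn added). Leaving out 1 library gave 2 to 5, with 2 without Ctrl TAC 2, Ctrl TAC 3, KO TAC 1, KO TAC 2 or KO TAC 3 (Bgn and Aspn each time) and 5 without Ctrl TAC 4. Calls over all genes moved as well. They were 489 in the main fit, 63, 190, 258, 152 and 84 in those 5 fits in the same order, and 733 without Ctrl TAC 4. The interaction count of 0 went to 2 with DESeq2 and ranged from 0 to 1 with a library left out. The cause of these shifts was not tested. Leaving mitochondrial genes out of the total moved the summed SLRP level to 859.8 (Ctrl) and 856 (KO) CPM after sham and to 1286 and 1768 CPM after TAC. The Cardinal difference after sham was -2.92 to -2.65 (log2 CPM) with a library left out, with an exact p of 0.0571 each time when 2 times the smaller tail is taken, the smallest that 3 against 4 then allows.

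Sign changes were found for values near 0 that did not pass the test. For KO against Ctrl sham, leaving out 1 library gave -0.10 to 0.016 for Lum, -0.082 to 0.031 for Bgn, -0.13 to 0.0034 for Ogn, -0.41 to 0.087 for Omd, -0.12 to 0.0069 for Prelp and -0.054 to 0.061 for Aspn, and the term for numbers starting with 33 gave 0.064 for Lum, 0.021 for Ogn, 0.13 for Omd, -0.10 for Aspn and 0.029 for Podn. Ogn with TAC in KO was 0.0019 without a filter and -0.073 to 0.053 with a library left out. Podn with TAC was -0.23 in Ctrl and -0.041 in KO with the series term, -0.11 in KO with the term for 33, -0.012 in Ctrl without the 2 libraries, and with 1 library left out -0.018 to 0.19 in Ctrl and -0.0086 to 0.10 in KO. Podn between the TAC groups was 0.11 with the series term, and its interaction was 0.0081 without a filter, 0.19 with the series term, 0.040 without the 2 libraries and -0.15 to 0.062 with 1 library left out.

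At 10 to 43 reads a sham library, the Fmod fold change is the least precise of the 9.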
